A study of Mus musculus with 36 samples.

Results

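Syndecans and glypicans are the main heparan sulphate proteoglycans of the cell surface. Of the 29883 genes in the count table, 7 are described here, the 4 syndecans Sdc1, Sdc2, Sdc3 and Sdc4 and the glypicans Gpc1, Gpc4 and Gpc6. On GRCm38, Sdc1 (ENSMUSG00000020592) lies at 8771323 to 8793715 on chromosome 12, Sdc2 (ENSMUSG00000022261) at 32920723 to 33034935 on chromosome 15, Sdc3 (ENSMUSG00000025743) at 130792537 to 130826319 on chromosome 4 and Sdc4 (ENSMUSG00000017009) at 164424247 to 164443887 on chromosome 2. Gpc1 (ENSMUSG00000034220) lies at 92831645 to 92860779 on chromosome 1, Gpc4 (ENSMUSG00000031119) at 52053021 to 52165252 on chromosome X and Gpc6 (ENSMUSG00000058571) at 116925315 to 117976544 on chromosome 14. The members were chosen by gene symbol, and Sdc1 was picked because its counts changed with opposite sign after myelin in the 2 macrophage cultures. Its macrophage values are therefore given as a description, with no test, and it is not counted among members that passed in macrophages. The other 3 glypicans of the family, Gpc2, Gpc3 and Gpc5, were at or near 0, with 140, 7 and 2 counts over all 36 libraries.

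The study compared mouse macrophages and brain tumour cells in vitro, each in co-culture with the other cell type or alone, at 0 h (the labels' control), 6 h and 24 h after myelin debris. Macrophages were derived from bone marrow, and the tumour cells were 1 line, PDG-Ink4a Recurrent, from a genetically engineered model in which platelet-derived growth factor B is expressed in Nestin-positive progenitors on an Ink4a/Arf knockout background. Cells were sorted before RNA was taken, and libraries were primed with oligo-dT from nanogram amounts of RNA. The 12 groups held 3 libraries each, numbered 001 to 003, and no label says that these came from separate cultures or animals. Any p-value given here covers only the variation among these libraries, which may be technical. The labels do not say how long the 0 h cultures were kept, so hours of myelin and hours in culture cannot be told apart.

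Each of these proteins carries long sulphated sugar chains that bind growth factors, chemokines, lipoproteins and matrix proteins at the cell surface. Syndecans span the membrane and end in a short cytoplasmic tail that binds scaffold proteins with PDZ domains, and glypicans are held by a glycosylphosphatidylinositol anchor. Both kinds can be shed by proteases or lipases, and both serve as co-receptors and as routes of endocytosis. In the nervous system they are known from axon guidance and synapse formation, and in glioma from growth factor signalling. Sdc1 is also a marker of plasma cells (CD138) and is found on epithelia and on some macrophages.

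The coding ends of the syndecans show what the 4 members share that the choice by symbol did not use. Shown are the last 32 codons of the GENCODE vM21 transcripts, read from GRCm38, with the final 15 bases in capitals, which hold the last 4 codons, known as the PDZ-binding end, and the stop codon. They lie at chr12:8791712-8791807 (+) for Sdc1, chr15:33032445-33032540 (+) for Sdc2, chr4:130822714-130822809 (+) for Sdc3 and chr2:164426086-164426181 (-) for Sdc4, on the strand given.
Sdc1: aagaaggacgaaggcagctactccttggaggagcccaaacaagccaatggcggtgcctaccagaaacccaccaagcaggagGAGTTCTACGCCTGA
Sdc2: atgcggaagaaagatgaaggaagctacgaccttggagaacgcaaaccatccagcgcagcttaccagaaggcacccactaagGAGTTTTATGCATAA
Sdc3: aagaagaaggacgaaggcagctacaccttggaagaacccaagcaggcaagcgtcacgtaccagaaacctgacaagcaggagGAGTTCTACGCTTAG
Sdc4: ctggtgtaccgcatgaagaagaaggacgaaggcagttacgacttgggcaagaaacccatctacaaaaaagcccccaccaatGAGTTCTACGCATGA
Position by position, with no gaps, Sdc1 and Sdc3 had the same base at 56 of 96 positions (58.3%), and the other pairs at 34 to 42 positions. All 4 genes had the same base at 17 of 96 positions (17.7%). The longest run of identical bases between the transcripts of any 2 members was 29 bases, between Sdc4 and Sdc3, followed by 27 bases between Sdc3 and Sdc1 and 23 between Sdc4 and Sdc1. The other pairs shared runs of at most 17 bases.

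Upstream windows are shown for Sdc1, Sdc3 and Sdc4, whose levels were of the same order in both cell types. They come from RefSeq (GRCm38.p6), exclude the gene's own exons, and lie at chr12:8771146-8771322 (+), chr4:130792287-130792536 (+) and chr2:164443189-164443438 (-). The Sdc4 window lies before the RefSeq start but inside the GENCODE gene, between exons of a transcript that starts farther upstream. Capitals mark every match to the motifs searched on both strands, which were the GC box GGGCGG, the TATA box TATAAA, the AP-1 site TGANTCA, the E-box CACGTG and the nuclear receptor element AGGTCA.
Sdc1: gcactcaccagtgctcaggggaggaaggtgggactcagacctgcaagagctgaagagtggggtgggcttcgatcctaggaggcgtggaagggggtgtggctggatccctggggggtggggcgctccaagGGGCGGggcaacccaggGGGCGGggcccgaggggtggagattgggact
Sdc3: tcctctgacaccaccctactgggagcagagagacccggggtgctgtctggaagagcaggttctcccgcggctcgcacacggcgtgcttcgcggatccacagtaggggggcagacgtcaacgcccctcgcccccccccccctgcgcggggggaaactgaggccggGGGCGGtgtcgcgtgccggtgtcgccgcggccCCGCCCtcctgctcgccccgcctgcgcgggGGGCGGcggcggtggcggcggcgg
Sdc4: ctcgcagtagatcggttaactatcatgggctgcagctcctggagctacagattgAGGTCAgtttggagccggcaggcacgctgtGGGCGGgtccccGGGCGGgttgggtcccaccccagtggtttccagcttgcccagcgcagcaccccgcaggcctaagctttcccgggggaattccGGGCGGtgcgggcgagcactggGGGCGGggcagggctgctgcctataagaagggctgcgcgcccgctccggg
The Sdc1 window of 177 bases held 2 GC boxes, the Sdc3 window 3 and the Sdc4 window 4, and the Sdc4 window also held 1 nuclear receptor element. No TATA box, AP-1 site or E-box was found in these 3 windows. In 32851 promoters, 32.7% of 250-base upstream windows held a GC box, and 20.6% of windows cut to 177 bases did. Of the same 250-base windows, 12.4% held a TATA box, 6.75% an AP-1 site, 6.02% an E-box and 14.0% the nuclear receptor element.

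Total counts ran from 7911378 to 15319104 per library (median 12262573). Number 001 stood apart from 002 and 003 for several members in most groups, as given with each of them. The 17 macrophage markers summed to 21354 to 27537 CPM (counts scaled to a common library size) in macrophage libraries and to 15.9 to 2168 CPM in tumour cell libraries. In macrophages, 9 plasma and B cell markers summed to at most 3.92 CPM, and Sdc1 itself to 92.8 to 237 CPM. From 50 marker genes of tumour cells, the share of tumour cell RNA in macrophages from co-culture averaged 2.03% (SD 0.955, 3 libraries) before myelin, 1.68% (SD 1.08) at 6 h and 4.14% (SD 0.0283) at 24 h. In macrophages alone it was at most 0.0479% in any library, and 0% in each library numbered 001. Where such RNA moves with a member, its part in the difference was not tested, and in these bulk libraries fewer cells of a type and less RNA per cell cannot be told apart. Macrophage RNA in tumour cell libraries was 0.0240% to 2.49% in co-culture and 0% to 2.35% alone, and at most 0.0535% in any library numbered 001. With 20 marker genes in place of 50 the highest macrophage share in tumour cells was 1.11%, in co-culture.

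Before myelin the cell types differed in which members they held at a high level. Per kilobase of exon, macrophages alone at 0 h held Sdc3 (75.8 ± 9.30 CPM per kb, SD, n = 3), Sdc4 (37.0 ± 8.45), Sdc1 (29.1 ± 5.37) and Gpc1 (19.1 ± 0.374) well above Sdc2 (0.690 ± 0.459), Gpc4 (0.0558 ± 0.0586) and Gpc6 (0.0115 ± 0.0112). Tumour cells alone at 0 h held Gpc1 (91.9 ± 3.34 CPM per kb), Sdc3 (86.0 ± 13.8), Sdc2 (69.2 ± 12.1), Sdc4 (58.0 ± 3.07), Gpc4 (44.0 ± 2.59) and Sdc1 (36.1 ± 2.35) within a narrow range, and Gpc6 at 2.59 ± 1.06. In macrophages Sdc4 and Sdc1 had overlapping libraries. In tumour cells the libraries overlapped between Gpc1 and Sdc3 and between Sdc3 and Sdc2, and did not overlap between the other neighbours in this order.

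**Figure D1:**
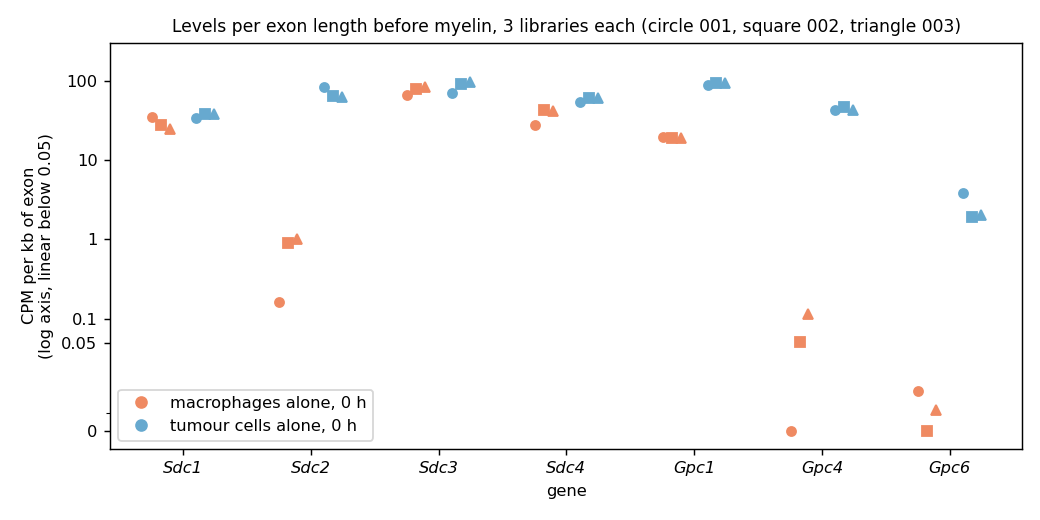
Levels of the 7 members before myelin, in CPM per kilobase of exon on a log axis that is linear below 0.05, for 3 libraries of macrophages alone (orange, left) and 3 of tumour cells alone (blue, right). Sdc1, Sdc3 and Sdc4 lie at similar heights in both cell types, whereas Sdc2, Gpc4 and Gpc6 lie far lower in macrophages.

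Gpc4 and Gpc6 entered the fit of macrophages against tumour cells only through the libraries where they are high, so no test of them is given here. Of the other 4 members tested between macrophages and tumour cells alone at 0 h, 3 passed at an adjusted p under 0.05 by edgeR's quasi-likelihood test, all lower in macrophages. In that comparison 70.0% of 14776 genes passed and 37.7% of all genes tested were lower in macrophages, so a pass says little about the members. Gpc1, a glypican of nerve cells and a co-receptor of fibroblast growth factor, was lower in macrophages by 2.20 ± 0.17 on the log2 scale (SE; adjusted p = 2e-12). Sdc2, the syndecan of fibroblasts and other mesenchymal cells, differed by -6.44 ± 0.59 (adjusted p = 1.92e-10). Gpc4, a glypican that astrocytes release, averaged 0.148 CPM in macrophages and 117 CPM in tumour cells. Sdc4, a co-receptor for fibronectin at focal adhesions, differed by -0.57 ± 0.19 (adjusted p = 0.00791, and 0.0772 without macrophage library 001). Sdc3, the syndecan of the nervous system, did not pass, at -0.12 ± 0.19, with an interval of 2 SE from -0.50 to 0.27. Gpc6, a close relative of Gpc4, had 2 counts in the 3 macrophage libraries and 556 in the 3 tumour cell libraries, a ratio of 0.00363 with a 95% counting interval of 0.000439 to 0.0132. Sdc1 stood at -0.26 ± 0.13 between macrophages and tumour cells, given with no test.

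**Figure D2:**
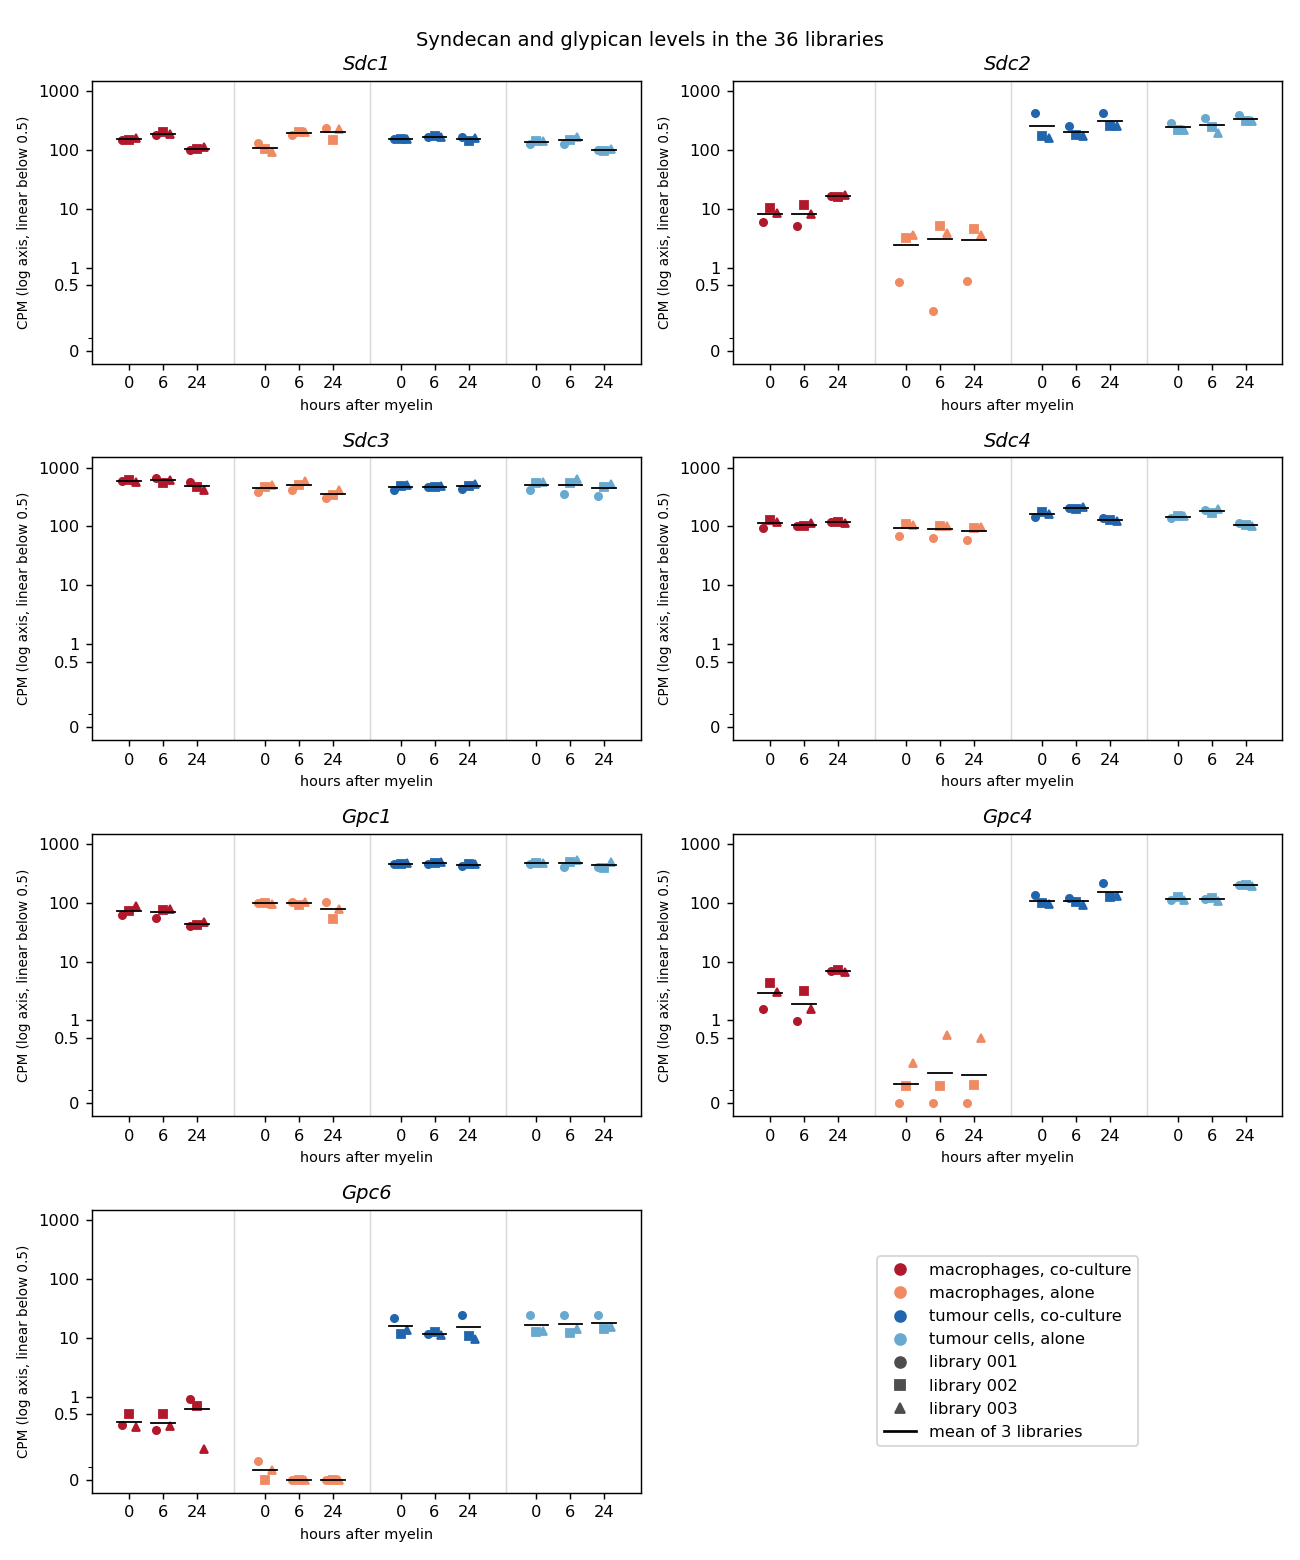
CPM of each member in all 36 libraries, on a log axis that is linear below 0.5, by hours after myelin in macrophages in co-culture, macrophages alone, tumour cells in co-culture and tumour cells alone. Symbols mark the library number and bars the mean of 3. Sdc1, Sdc3 and Sdc4 stay within a few-fold everywhere, and Gpc4 and Gpc6 are at or near 0 in macrophages alone. In macrophages in co-culture Gpc4 has 0.960 to 7.18 CPM and Gpc6 stays low, at 0.235 to 0.902 CPM.

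Sdc1 in macrophages went different ways in the cultures. In co-culture it had 148, 148 and 163 CPM at 0 h, 179, 200.0 and 189 CPM at 6 h and 101, 105 and 112 CPM at 24 h. Alone it had 133, 106 and 92.8 CPM at 0 h, 180.3, 207 and 202 CPM at 6 h and 237, 148 and 232 CPM at 24 h. In co-culture every 6 h library was above and every 24 h library below every 0 h library, and alone every library at 6 h and 24 h was above every 0 h library. The 24 h libraries alone were spread most, with library 002 well below the other 2.

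Against 0 h, Sdc1 in macrophages in co-culture differed by 0.31 ± 0.15 at 6 h and by -0.52 ± 0.15 at 24 h (log2, SE, n = 3 each), and in macrophages alone by 0.83 ± 0.15 and 0.90 ± 0.15. Between the cultures the 24 h change of Sdc1 differed by -1.42 ± 0.21, and by -1.43 ± 0.23 in libraries 002 and 003 only. Leaving out any 1 library gave -1.61 to -1.28. Sdc1 was chosen for this difference in these same libraries, so these values describe it and are no support for it. In co-culture against alone, Sdc1 stood at 0.47 ± 0.15 at 0 h, at -0.05 ± 0.15 at 6 h, where the libraries overlapped, and at -0.95 ± 0.15 at 24 h, where all 3 co-culture libraries were below all 3 alone. Tumour cell RNA in the co-culture macrophages would account for 3.13, 2.85 and 6.52 CPM of Sdc1 at 0 h, 6 h and 24 h, out of 153, 189 and 106 CPM measured.

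**Figure D3:**
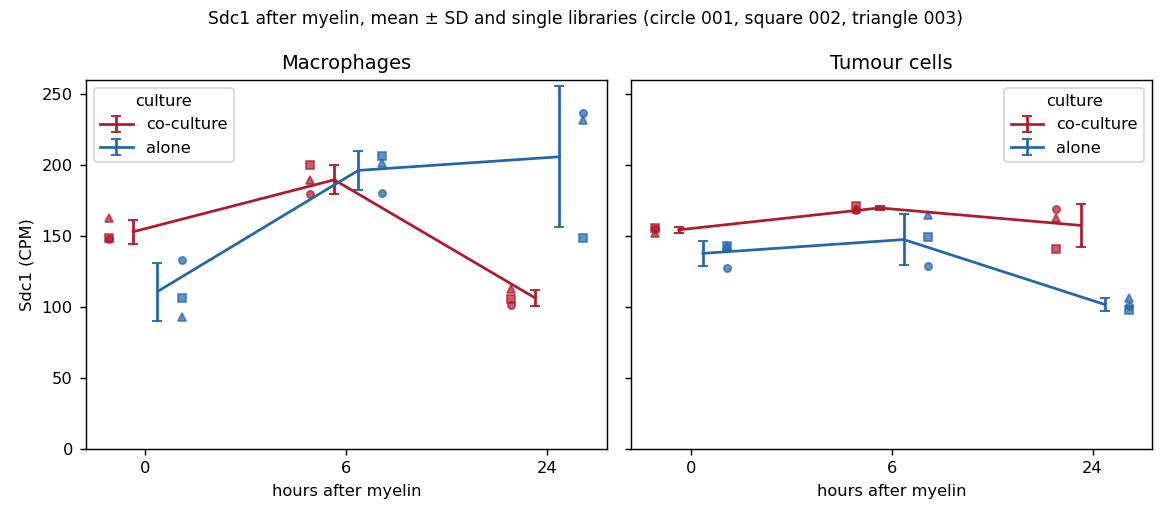
Sdc1 in CPM at 0 h, 6 h and 24 h after myelin in macrophages (left) and tumour cells (right), in co-culture (red) and alone (blue), as mean ± SD of 3 libraries with the libraries beside it. Macrophages in co-culture end at 101 to 112 CPM and macrophages alone at 148 to 237 CPM, whereas tumour cells in co-culture end at 141 to 169 CPM and tumour cells alone at 98.0 to 107 CPM.

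The rule that picked Sdc1 used its macrophage values, with earlier results of these data known. In tumour cells, Sdc1 fell with myelin in cells kept alone. It had 155, 156 and 152 CPM at 0 h, 168, 171 and 169 CPM at 6 h and 169, 141 and 162 CPM at 24 h in co-culture. Alone it had 127, 143 and 143 CPM at 0 h, 129, 149 and 164 CPM at 6 h and 101, 98.0 and 107 CPM at 24 h. Alone, all 3 libraries at 24 h were below all 3 at 0 h, and in co-culture the 24 h and 0 h libraries overlapped.

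At 24 h against 0 h, Sdc1 in tumour cells alone changed by -0.44 ± 0.09 (log2, SE; edgeR adjusted p = 0.00672, and 0.0115 to 0.0366 when 1 library was left out). In co-culture the change was 0.03 ± 0.09 (adjusted p = 0.923), with an interval of 2 SE from -0.14 to 0.20. At 24 h, Sdc1 was 157 ± 15.0 CPM in co-culture and 102 ± 4.37 CPM alone (SD, n = 3 each), higher in co-culture by 0.63 ± 0.09 (adjusted p = 0.0138) in 3 of 3 libraries. It was the sole member to pass among 7 tested in tumour cells in co-culture against alone at 24 h, where 0.0809% of 13603 genes passed, and 6.12% with number as a block. That call was lost with the compared groups only (adjusted p = 0.23) and without library 001, 002 or 003 of tumour cells alone at 24 h or library 003 in co-culture (0.0848, 0.128, 0.0857 and 0.113), with log2 values of 0.61 to 0.68. Between the cultures the 24 h change differed by 0.47 ± 0.12 (unadjusted p = 0.0018, adjusted p = 1 by edgeR). With libraries 002 and 003 only it was 0.47 ± 0.11 (adjusted p = 0.0174). Macrophage RNA in these tumour cell libraries at 24 h was 0.0535%, 1.76% and 1.77% in co-culture and 0%, 1.72% and 2.35% alone.

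Elsewhere in tumour cells, 0 of 7 members passed at 6 h against 0 h in either culture or in co-culture against alone at 0 h and 6 h. The shares of all genes that passed were 0.0147% at 6 h in co-culture, 0.00735% at 6 h alone, and 0 of 13603 genes in co-culture against alone at both 0 h and 6 h. In the last comparisons 698 and 543 genes had an unadjusted edgeR p under 0.05, DESeq2 called 0 at both times, and the fit blocked by library number called 162 and 5. At 24 h against 0 h, 0 of 7 members passed in co-culture (0.787% of all genes) and 3 of 7 alone (10.5%), which were Sdc1, Sdc4 and Gpc4. These counts come from the fit without the block, although library numbers pair the tumour cell libraries. With the block, Sdc4 and Gpc4 passed in co-culture (edgeR adjusted p = 0.0413 and 0.0389), where 9.28% of genes passed. Alone, the block added Sdc2 (0.034), where 27.9% of genes passed. For the difference between the cultures in the 24 h change, 0 members and 0 of all genes passed by edgeR, with 496 genes at an unadjusted p under 0.05, 1 by DESeq2 and 28 with the block. The 6 h and 24 h comparisons of a culture share its 0 h libraries. Libraries 002 and 003 alone, tested as a pair per group, gave more calls, and the shares of all genes that passed with them were 2.98% at 6 h and 22.6% at 24 h in co-culture, 6.18% and 35.9% alone, 15.8%, 9.16% and 24.1% in co-culture against alone at 0 h, 6 h and 24 h, and 4.45% for the culture difference in the 24 h change. By DESeq2 the shares were 3.3% for co-culture at 24 h and 3.94% for co-culture against alone at 24 h.

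In macrophages, 5 members were tested beside Sdc1, since Gpc6 did not pass the filter on low counts, and Gpc4 passed it only through the co-culture groups. At 24 h against 0 h, 1 of these 5 passed in co-culture (Gpc1, lower, where 11.4% of 13165 genes passed). Alone, Gpc4 had 6, 9 and 8 counts per group at 0 h, 6 h and 24 h, so it is not counted there. Of the other 4 members 0 passed alone at 24 h (15.2%). At 6 h against 0 h 0 of 5 passed in co-culture (0.213% of genes) and 0 of the other 4 alone (2.15%). In co-culture against alone Gpc4 is left out too, and of the other 4 members 0 passed at 0 h (13.7% of genes), 0 at 6 h (9.94%) and 3 at 24 h (28.0%), which were Sdc2, Sdc3 and Gpc1. The myelin comparisons of macrophages are those the choice of Sdc1 used, and their shares are given beside the counts only. With libraries 002 and 003 only, 15.4% of genes passed in co-culture and 17.4% alone at 24 h, and 12.7% and 9.01% in co-culture against alone at 0 h and 6 h. In co-culture against alone at 24 h the shares were 23.1% with those libraries, 25.4% by DESeq2, 24.4% on the compared groups only and 11.9% with no filter on low counts. DESeq2 called 10.3% in co-culture against alone at 6 h, and the fit on the compared groups only called 16.0% in co-culture at 24 h. For the difference between the cultures in the 24 h change 0 of the 4 members other than Gpc4 passed (0.0152%).

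Sdc4 in tumour cells was lower at 24 h than at 0 h in both cultures, and the change alone passed in the fit without the block. It had 143, 178 and 164 CPM at 0 h, 204, 202 and 213 CPM at 6 h and 139.9, 127 and 126 CPM at 24 h in co-culture. Alone it had 139, 153 and 152 CPM at 0 h, 189, 170.0 and 200.3 CPM at 6 h and 113, 107 and 101 CPM at 24 h. In both cultures every 6 h library was above and every 24 h library below every 0 h library.

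The 24 h change of Sdc4 in tumour cells was -0.30 ± 0.09 in co-culture (log2, SE; adjusted p = 0.128; blocked by library number 0.0413, where 9.28% of genes passed) and -0.46 ± 0.09 alone (adjusted p = 0.00465). The 24 h change in co-culture also passed by DESeq2 (adjusted p = 0.0352) and, at -0.42 ± 0.08, in libraries 002 and 003 only (0.000576). At 6 h Sdc4 stood 0.35 ± 0.09 above 0 h in co-culture (adjusted p = 0.439) and 0.34 ± 0.09 above it alone (0.387), and neither passed over all genes. In libraries 002 and 003 only the 6 h values were 0.28 ± 0.07 in both cultures (adjusted p = 0.0492 in co-culture and 0.0304 alone). At 24 h Sdc4 was 0.29 ± 0.09 higher in co-culture than alone (adjusted p = 0.151). This culture difference passed by DESeq2 (adjusted p = 0.0374) and, at 0.29 ± 0.08, in libraries 002 and 003 only (0.00898).

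Between macrophage groups Sdc4 passed in no comparison over all libraries by edgeR without the block. It had 95.2, 131 and 119 CPM at 0 h, 99.9, 102 and 113 CPM at 6 h and 121, 119.6 and 115 CPM at 24 h in co-culture. Alone it had 69.5, 108 and 105 CPM at 0 h, 63.6, 103 and 101 CPM at 6 h and 58.7, 93.4 and 96.6 CPM at 24 h. Library 001 was the lowest of each group alone, at 58.7 to 69.5 CPM, against 93.4 to 108 CPM in libraries 002 and 003. At 24 h it was 0.51 ± 0.21 higher in co-culture than alone, with no overlap of libraries (adjusted p = 0.0777). That difference passed by DESeq2 (adjusted p = 0.0355) and, at 0.30 ± 0.08, in libraries 002 and 003 only (0.0185). With the block it was 0.55 ± 0.14 (edgeR adjusted p = 0.00523), in a comparison where library numbers do not pair libraries.

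Sdc3 had the highest level per length of the members in macrophages. In co-culture it had 587, 623 and 563 CPM at 0 h, 671, 544 and 630.1 CPM at 6 h and 565, 472 and 425 CPM at 24 h. Alone it had 391, 471 and 499 CPM at 0 h, 419, 515 and 601 CPM at 6 h and 302, 349 and 415 CPM at 24 h. The co-culture libraries lay above those alone at 0 h and 24 h, and overlapped with them at 6 h.

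At 24 h macrophage Sdc3 was 0.45 ± 0.15 higher in co-culture than alone (log2, SE; adjusted p = 0.0306). That call was lost with the compared groups only (0.055) and without library 001 or 002 of either group (0.108 and 0.0654 without those alone, 0.103 and 0.0604 without those in co-culture), and the value was 0.23 ± 0.12 in libraries 002 and 003 only (adjusted p = 0.187). Tumour cell RNA would account for 20.0 of the 487 CPM of Sdc3 measured in co-culture at 24 h. The 24 h change against 0 h was -0.28 ± 0.15 in co-culture (adjusted p = 0.238) and -0.35 ± 0.15 alone (0.122). In libraries 002 and 003 only it was -0.39 ± 0.12 in co-culture (edgeR adjusted p = 0.044) and -0.35 ± 0.12 alone (0.0607). Without library 001 at 0 h the change alone was -0.46 ± 0.15 (0.0462). In tumour cells Sdc3 ran from 412 to 527 CPM in co-culture and from 337 to 634 CPM alone. Library 001 was the lowest of each tumour cell group, and no comparison of Sdc3 in tumour cells passed (adjusted p from 0.517 to 1). In libraries 002 and 003 only, Sdc3 was lower in co-culture than alone at 6 h (-0.32 ± 0.08, adjusted p = 0.0172).

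Sdc2 was high in tumour cells. Tumour cells had 424, 172 and 163 CPM at 0 h, 260.2, 183 and 177 CPM at 6 h and 435, 254 and 262 CPM at 24 h in co-culture. Alone they had 293, 223 and 216 CPM at 0 h, 348, 249 and 198 CPM at 6 h and 390.4, 316 and 319 CPM at 24 h. Library 001 was the highest of every group, at 260.2 to 435 CPM, against 163 to 319 CPM in libraries 002 and 003.

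The 24 h change of Sdc2 in tumour cells was 0.32 ± 0.34 in co-culture (adjusted p = 0.706) and 0.49 ± 0.34 alone (0.376). Blocked by library number, the change alone was 0.50 ± 0.16 (adjusted p = 0.034, where 27.9% of genes passed). In libraries 002 and 003 only, the changes were 0.63 ± 0.08 in co-culture (adjusted p = 2.94e-05) and 0.52 ± 0.08 alone (7.09e-05). Between co-culture and alone, tumour cell Sdc2 differed by 0.05 ± 0.34, -0.36 ± 0.34 and -0.11 ± 0.33 at 0 h, 6 h and 24 h over all libraries, and by -0.39 ± 0.08, -0.32 ± 0.08 and -0.29 ± 0.08 in libraries 002 and 003 only (adjusted p = 0.0041, 0.0192 and 0.0114).

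Macrophage Sdc2 was low, with every co-culture library above every library alone at each time. It had 5.99, 10.4 and 8.44 CPM at 0 h, 5.09, 11.6 and 8.25 CPM at 6 h and 16.8, 15.8 and 17.3 CPM at 24 h in co-culture. Alone it had 0.577, 3.16 and 3.56 CPM at 0 h, 0.304, 5.06 and 3.93 CPM at 6 h and 0.602, 4.54 and 3.56 CPM at 24 h. Alone, library 001 held 0.304 to 0.602 CPM and libraries 002 and 003 held 3.16 to 5.06 CPM. The share of tumour cell RNA was 0% in library 001, and 0%, 0.00120% and 0.00287% in library 002 at 0 h, 6 h and 24 h. In library 003 it was 0.00814%, 0.000938% and 0.0479% at these times.

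Relative to macrophages alone, Sdc2 in co-culture was higher by 2.47 ± 0.60 at 24 h (log2, SE; adjusted p = 0.00692). It stood 1.66 ± 0.62 higher at 0 h (adjusted p = 0.0947, and 0.0161 blocked by library number, where 19.5% of genes passed) and 1.30 ± 0.60 higher at 6 h (0.211). In libraries 002 and 003 only, Sdc2 was higher in co-culture by 1.47 ± 0.23 at 0 h (edgeR adjusted p = 0.00124, where 12.7% of genes passed). With them it was higher by 1.15 ± 0.22 at 6 h (0.00513, where 9.01% passed). At 24 h the tumour cell RNA share multiplied by the tumour cell level gives 13.1 CPM, out of 16.6 CPM measured in co-culture, with 2.90 CPM alone. At 0 h it gives 5.13 out of 8.26 CPM with 2.43 CPM alone, and at 6 h 3.47 out of 8.30 CPM with 3.10 CPM alone. The 24 h change of macrophage Sdc2 against 0 h in co-culture did not pass over all libraries. It was 0.83 ± 0.19 in libraries 002 and 003 only (edgeR adjusted p = 0.0142, where 15.4% of genes passed). With the compared groups only it was 1.00 ± 0.17 (0.00796, where 16.0% passed).

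**Figure D4:**
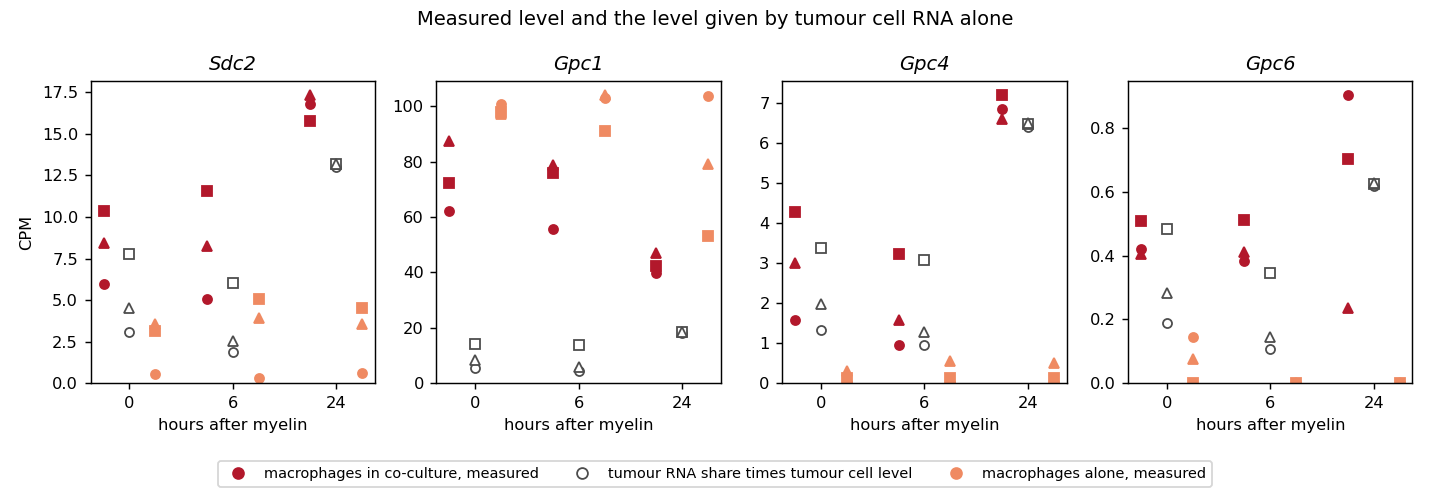
CPM of Sdc2, Gpc1, Gpc4 and Gpc6 in macrophages in co-culture (red), the level given by the share of tumour cell RNA multiplied by the level in tumour cells from co-culture (open grey) and CPM in macrophages alone (orange), at 0 h, 6 h and 24 h. For Gpc4 at 24 h the measured 6.59 to 7.18 CPM and the level from tumour cell RNA of 6.41 to 6.49 CPM nearly coincide, and for Gpc1 the measured level in co-culture lies below that alone.

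Gpc1 was the tested member that passed, as lower, in macrophages in co-culture at 24 h against 0 h, over all libraries without the block. It had 62.0, 72.3 and 87.4 CPM at 0 h, 55.5, 75.7 and 78.7 CPM at 6 h and 39.6, 42.4 and 47.1 CPM at 24 h in co-culture. Alone it had 101, 98.0 and 97.2 CPM at 0 h, 103, 90.8 and 104 CPM at 6 h and 104, 53.0 and 79.2 CPM at 24 h. In co-culture all 24 h libraries were below all 0 h libraries, and at each time all co-culture libraries were below all libraries alone.

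The 24 h change of Gpc1 in macrophages was -0.78 ± 0.19 in co-culture (log2, SE; adjusted p = 0.0176) and -0.33 ± 0.19 alone (0.271). The call in co-culture was lost without library 001 or 002 at 24 h (0.06 and 0.0595), without library 002 or 003 at 0 h (0.0512 and 0.0858) and with no filter on low counts (0.0567). Alone, library 001 at 24 h stood with the 0 h libraries, and the change was -0.57 ± 0.16 in libraries 002 and 003 only (adjusted p = 0.0282). Between the cultures the 24 h change did not differ past the threshold (-0.45 ± 0.27, adjusted p = 0.773). Gpc1 was lower in co-culture than alone at 24 h (log2 -0.86 ± 0.19, adjusted p = 0.00393), and stood at -0.41 ± 0.19 at 0 h (0.177) and -0.50 ± 0.19 at 6 h (0.12). Gpc1 is 4.8 times higher in tumour cells, and tumour cell RNA would account for 9.45, 7.94 and 18.3 CPM of it at 0 h, 6 h and 24 h, leaving 64.5, 62.0 and 24.7 CPM. In tumour cells Gpc1 ran from 423 to 489.7 CPM in co-culture and from 398 to 532 CPM alone, and no comparison passed (adjusted p from 0.391 to 1).

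Gpc4 rose in tumour cells alone at 24 h. It had 135, 97.8 and 95.6 CPM at 0 h, 122, 103 and 91.8 CPM at 6 h and 214, 124 and 129 CPM at 24 h in co-culture. Alone it had 112, 125 and 113 CPM at 0 h, 118, 119.8 and 106 CPM at 6 h and 199, 205 and 191 CPM at 24 h. Alone, every 24 h library was above every 0 h library. In co-culture libraries 002 and 003 at 24 h stood below library 001 at 0 h, and library 001 was the highest at each time.

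The 24 h change of Gpc4 in tumour cells was 0.51 ± 0.18 in co-culture (log2, SE; adjusted p = 0.228, and 0.0389 with the block) and 0.76 ± 0.18 alone (0.0168). The call alone was lost without library 002 at 24 h (0.0526) or library 003 at 0 h (0.0568). In libraries 002 and 003 only, Gpc4 rose by 0.40 ± 0.08 in co-culture (adjusted p = 0.00131) and by 0.72 ± 0.08 alone (1.61e-06). Between co-culture and alone at 24 h Gpc4 stood at -0.35 ± 0.18 (adjusted p = 0.427), at -0.63 ± 0.14 without co-culture library 001 (0.0285) and at -0.63 ± 0.08 in libraries 002 and 003 only (1.36e-05), which also gave -0.31 ± 0.08 at 0 h (0.0146). Between the cultures the 24 h change differed by -0.26 ± 0.26 (adjusted p = 1).

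**Figure D5:**
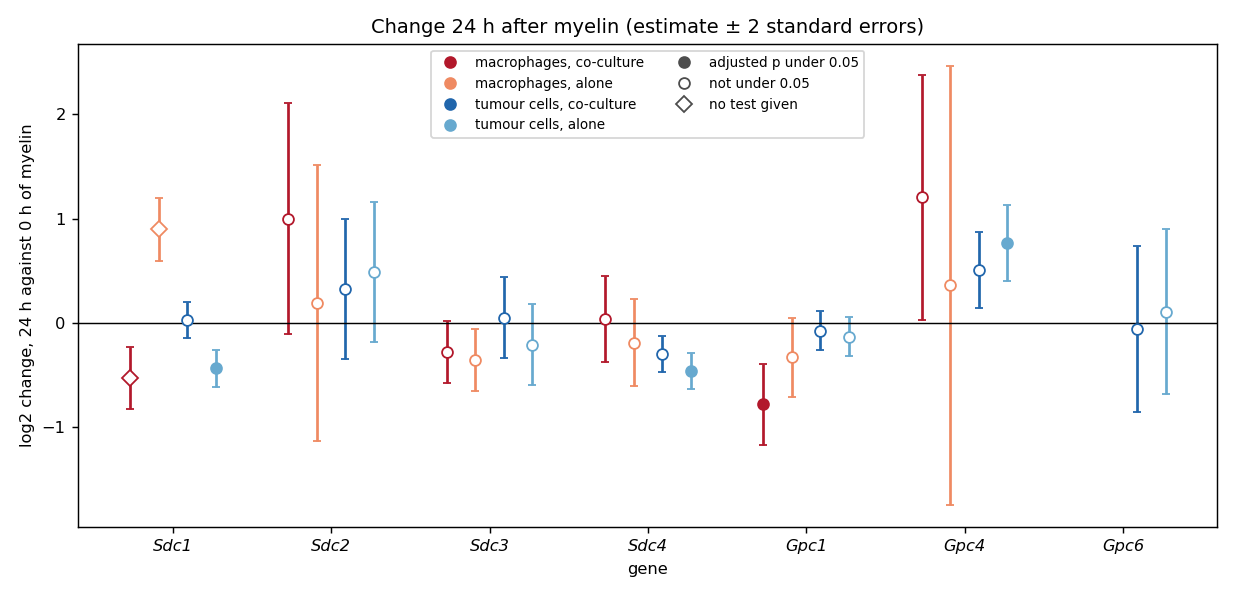
Log2 change at 24 h against 0 h of myelin for each member, as estimate ± 2 SE, in macrophages in co-culture, macrophages alone, tumour cells in co-culture and tumour cells alone. Filled points passed in the fit without the block, which were Gpc1 in macrophages in co-culture and Sdc1, Sdc4 and Gpc4 in tumour cells alone. Diamonds are Sdc1 in macrophages, shown with no test.

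Macrophage Gpc4 was near 0 alone and higher in co-culture, at levels close to those the share of tumour cell RNA gives. It had 1.58, 4.28 and 3.00 CPM at 0 h, 0.960, 3.22 and 1.58 CPM at 6 h and 6.86, 7.18 and 6.59 CPM at 24 h in co-culture. Alone it had 6, 9 and 8 counts per group at 0 h, 6 h and 24 h, none of them in library 001. In co-culture it had 111, 77 and 262 counts per group, and every co-culture library was above every library alone at each time. No test of co-culture against alone is given, since Gpc4 entered the fit only through the co-culture groups. Tumour cell RNA would give 2.22, 1.77 and 6.45 CPM at 0 h, 6 h and 24 h, against 2.95, 1.92 and 6.88 CPM measured. Its 24 h change in co-culture was 1.20 ± 0.59 (adjusted p = 0.199, and 0.0336 with the block, where 19.7% of genes passed), beside a tumour cell RNA share of 4.14% at 24 h and 2.03% at 0 h.

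Macrophage Gpc6 was lower still. Macrophages in co-culture had 16, 17 and 23 counts at 0 h, 6 h and 24 h, and macrophages alone 2, 0 and 0 counts. The ratio of co-culture to alone at 0 h was 8.20 with a 95% counting interval of 1.93 to 73.5. At 6 h Gpc6 was at least 5.37-fold higher and at 24 h at least 7.95-fold higher in co-culture, taking 3 counts over the group for 0. The lower limits of a 95% counting interval of these ratios, which also covers the counts in co-culture, were 3.91 and 5.96. These intervals and floors cover counting error only. Tumour cell RNA would give 0.318, 0.199 and 0.624 CPM in co-culture at 0 h, 6 h and 24 h, against 0.444, 0.436 and 0.614 CPM measured.

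In tumour cells Gpc6 had 22.0, 11.5 and 13.5 CPM at 0 h, 11.8, 12.5 and 11.3 CPM at 6 h and 24.8, 10.7 and 9.70 CPM at 24 h in co-culture. Alone it had 24.5, 12.5 and 13.0 CPM at 0 h, 24.8, 12.0 and 14.3 CPM at 6 h and 24.6, 13.9 and 15.2 CPM at 24 h. Library 001 stood at 22.0 to 24.8 CPM in 5 of 6 groups and at 11.8 CPM in co-culture at 6 h. No comparison of Gpc6 between tumour cell groups passed (adjusted p from 0.851 to 1). In libraries 002 and 003 only, Gpc6 was lower in co-culture than alone at 24 h (-0.50 ± 0.13, adjusted p = 0.0107).

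The genes that build, cut and bind heparan sulphate were followed in 7 lists of 93 genes in all. In macrophages at 24 h against 0 h, 8 of 70 tested list genes passed in co-culture (11.4%, as of all genes) and 18 of 70 alone (25.7%, beside 15.2% of all genes), and counts in single lists are to be read against these shares. For the difference between the cultures in this change, 0 of 70 list genes passed, beside 0.0152% of all genes. A pass in 1 culture only does not show a difference between the cultures. Heparanase was the gene of shedding and cleavage that rose in both cultures at 24 h, 1 of 7 tested in each. Hpse, the enzyme that cuts heparan sulphate chains, had 98.0 ± 6.87 CPM at 24 h against 46.8 ± 10.7 CPM at 0 h in co-culture (SD, n = 3 each; 1.07 ± 0.23, adjusted p = 0.00884). Alone it had 157 ± 29.9 CPM at 24 h against 69.7 ± 20.1 CPM at 0 h (1.19 ± 0.23, adjusted p = 0.00388). Of 7 tested genes of lysosomal breakdown, 0 passed in co-culture at 24 h and 4 rose alone, with list medians of 0.13 and 0.54. For the difference between the cultures, 0 of these 7 had an unadjusted edgeR p under 0.05. Medians over all genes tested were -0.0098 in co-culture and -0.0045 alone. The risers alone included the lysosomal enzymes Gusb (0.54 ± 0.09, adjusted p = 0.00147) and Sgsh (0.55 ± 0.16, 0.032).

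Among 12 tested genes of chain modification, 2 rose and 0 fell in macrophages in co-culture at 24 h (median 0.19), and 1 rose and 1 fell alone (median 0.04). Ndst2, which removes acetyl groups and adds sulphate, rose in all 4 myelin comparisons of macrophages, by 0.41 ± 0.07 at 6 h and 0.52 ± 0.07 at 24 h in co-culture and by 0.30 ± 0.07 and 0.41 ± 0.07 alone (adjusted p from 0.00056 to 0.0437). Papss2, which makes the sulphate donor, rose in co-culture (0.60 ± 0.14, adjusted p = 0.0134), and its relative Papss1 fell alone (-0.26 ± 0.08, 0.0429). Of 10 tested genes of the linker and chain synthesis, 2 fell in each culture at 24 h. Extl3, which starts the chain, fell by 0.51 ± 0.13 in co-culture (adjusted p = 0.018) and by 0.42 ± 0.13 alone (0.0403). B3galt6, a linker enzyme, fell in co-culture (-0.62 ± 0.18, 0.0391), and Xylt2, which attaches the first sugar, fell alone (-0.90 ± 0.17, 0.003).

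Of 5 tested genes for other proteoglycans, 2 rose in macrophages at 24 h in each culture. They were Tgfbr3, the betaglycan co-receptor (1.24 ± 0.35 in co-culture, adjusted p = 0.03; 1.18 ± 0.33 alone, 0.0269), and Srgn, the granule proteoglycan serglycin (0.44 ± 0.12 in co-culture, 0.0279; 0.38 ± 0.12 alone, 0.048). Of 8 tested partners of the syndecan tail, 0 passed in co-culture, and 1 rose and 2 fell alone. Sdcbp, the PDZ protein syntenin that binds the tails shown above, rose alone (0.36 ± 0.09, 0.0143). Cask, another PDZ protein that binds them, fell (-0.41 ± 0.10, 0.0149), as did the Rac activator Tiam1 (-0.65 ± 0.20, 0.0429). Of 21 tested ligands and co-receptors, 0 rose and 1 fell in co-culture at 24 h, and 2 rose and 2 fell alone. Lpl, a lipase held on heparan sulphate, fell in co-culture (-1.04 ± 0.28, 0.0279). Alone, the growth factor Hgf rose (0.98 ± 0.15, 0.000788), and the chemokine Pf4 (-1.55 ± 0.33, 0.00635) and the receptor gene Igf1r (-0.55 ± 0.15, 0.0251) fell.

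In tumour cells at 24 h against 0 h, 2 of 76 tested list genes passed in co-culture (2.63%, beside 0.787% of all genes) and 6 of 76 alone (7.89%, beside 10.5%). For the difference between the cultures in this change, 0 of 76 list genes passed, and 0 of all genes. Of 23 tested ligands and co-receptors 1 fell in co-culture and 3 fell alone at 24 h, and 0 rose in either. Hbegf, an epidermal growth factor family ligand that binds heparan sulphate, had 29.9 ± 8.31 CPM at 24 h against 99.8 ± 33.2 CPM at 0 h in co-culture (-1.74 ± 0.25, adjusted p = 0.00845). Alone it had 16.5 ± 1.18 CPM at 24 h against 86.1 ± 11.3 CPM at 0 h (-2.39 ± 0.26, adjusted p = 0.000511). Vegfa, the vascular growth factor (-0.95 ± 0.19, 0.00773), and Tnc, the matrix protein tenascin C (-1.87 ± 0.47, 0.0225), fell alone. Of 9 tested tail partners, Src, a kinase of the syndecan tail complex, fell by 0.30 ± 0.07 in co-culture (adjusted p = 0.0494) and by 0.49 ± 0.07 alone (0.00122), and Prkca, the kinase that Sdc4 activates, fell by 0.45 ± 0.12 alone (0.0334). Sgsh rose alone (0.46 ± 0.11, 0.02), 1 of 7 lysosomal genes. In co-culture against alone at 24 h the chemokine gene Cxcl12 was the sole list gene to pass (0.58 ± 0.10, adjusted p = 0.0468). No gene of the other 4 lists passed in tumour cells after myelin or between cultures.

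In macrophages in co-culture against alone at 24 h, 21 of 70 tested list genes were higher and 10 lower, beside 1880 higher and 1809 lower of all 13165 genes. Of the 21, 12 are over 20 times higher in tumour cells than in macrophages, and 9 are not. Some of the 12 were near 0 alone, such as Sulf1 (0.106 CPM alone, 18.6 CPM in co-culture) and Hs6st2 (0.0513 and 3.15 CPM). Like Gpc4, genes that enter the fit only through co-culture groups could only be called higher, so their calls are no support. The count of 21 includes them and is given as a description only. Timp3, a protease inhibitor, had 99.2 CPM in co-culture, of which the share gives 91.6 CPM, and 1.21 CPM alone. Fn1, the matrix ligand fibronectin, had 1124 CPM in co-culture, of which the share gives 852 CPM, and 12.7 CPM alone. Among the 9, Pf4 had 25.7 CPM in co-culture, of which the share gives 0.0143 CPM, and 4.28 CPM alone. Extl3 had 167 CPM in co-culture, of which the share gives 4.90 CPM, and 123 CPM alone. Ext1 had 29.3 CPM in co-culture, of which the share gives 11.2 CPM, and 20.8 CPM alone. Among those lower in co-culture were 3 of 7 lysosomal genes, Naglu (-0.64 ± 0.17, adjusted p = 0.013), Idua (-0.46 ± 0.11, 0.00507) and Gusb (-0.37 ± 0.09, 0.00747), and Xylt1, which attaches the first sugar (-0.74 ± 0.17, 0.00464). The other lower genes are counted only.

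The genes whose group means ran most like those of Sdc1 were found by the root mean square difference of log2 CPM, centred over the 6 groups of a cell type. In macrophages the nearest of 9093 genes were Baiap2, an actin regulator (0.145), Dusp9, a phosphatase of mitogen-activated kinases (0.154), and Il7r, a cytokine receptor (0.162). Baiap2 had 47.9, 58.4 and 37.3 CPM at 0 h, 6 h and 24 h in co-culture and 40.2, 57.5 and 55.7 CPM alone. In tumour cells the nearest of 9478 genes were Tspan11, a tetraspanin (0.051), Lclat1, an acyltransferase (0.053), and Nemp1, a nuclear envelope protein (0.0545). Tspan11 had 68.5, 71.6 and 62.5 CPM at 0 h, 6 h and 24 h in co-culture and 59.3, 64.2 and 41.5 CPM alone. These likenesses rest on 6 group means each, which share the libraries of Sdc1.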

How the data were processed

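The transcripts of 36 mouse libraries were counted per gene. The authors deposited 1 table of raw read counts per gene, and the genome build is mm10 per the submitters' processing notes, with aligner and counter not given in the sources used. Gene positions in the table match GENCODE vM21 on GRCm38, whose exon lengths were used for levels per kilobase. Whether counting used strand is not given, and the genes on the other strand of Sdc3 and Gpc1 had at most 12 counts in a library.

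Libraries were grouped by title. Tests used R 4.3.3 with edgeR 4.0.16, by robust quasi-likelihood with TMM and filterByExpr, over the 18 libraries of each cell type (13165 genes in macrophages, 13603 in tumour cells) or all 36 (14776 genes) for macrophages against tumour cells. A gene passed at a Benjamini-Hochberg adjusted p under 0.05 over all genes of a comparison. Standard errors are the log2 change over the square root of F, and levels are CPM on TMM library sizes per cell type. Alternatives were RLE size factors, DESeq2 1.42.0, no filter, the compared groups only, libraries 002 and 003 only, the library number as a block, and each library left out. Leaving out members over 20 times higher in tumour cells was chosen after seeing the data.

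RNA of the other cell type is the median, over the 50 genes of at least 100 CPM with the highest ratio between the cell types alone at 0 h, of the level in a library over that in the other cell type alone at 0 h. The share in cells alone at 0 h is therefore low by the choice of these genes. The library number was taken to pair libraries where same-number residuals correlated above 0.1 between the groups compared. They did in every tumour cell comparison (lowest 0.325) and in macrophages against 0 h (0.157) and in co-culture against alone at 0 h (0.288), but not in co-culture against alone at 6 h (-0.0197) and 24 h (0.0661), the difference between macrophage cultures (0.0661) or macrophages against tumour cells (0.0578). Upstream sequences come from RefSeq and coding ends from the genome with GENCODE. The Gpc4 window lies in its own exon and is not shown, and Sdc2, Gpc1 and Gpc6 are named only.

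The members and the lists were chosen with earlier results of these data known. Named beside the 7 members are up to 3 genes with the smallest adjusted p that passed per list and comparison, and the 3 genes nearest to Sdc1 per cell type. A gene that this rule names is not reported here. The fits were tested on simulated data with known changes. Those data were drawn without an effect of the library number. They therefore say nothing on the fit without the block where numbers pair libraries.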

Additional observations from a re-analysis of the deposited data

Results flagged for a closer look

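Sdc1 was marked in 3 places because every library of a group moved one way and every library of the other group the opposite way, and none of these differences was tested, since Sdc1 was chosen for its macrophage values. In macrophages at 24 h against 0 h, the log2 ratio of means was -0.52 in co-culture and 0.89 alone, a difference of -1.42. At 24 h against 0 h in cells alone it was 0.89 in macrophages and -0.44 in tumour cells, a difference of 1.33. In co-culture against alone at 24 h it was -0.95 in macrophages and 0.63 in tumour cells, a difference of -1.58. Groups of 3 libraries were not examined for single outlying libraries.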

How the results depend on the processing

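Over the alternatives, all values under RLE size factors kept direction and call. Members that passed changed as follows, with the main counts in brackets. These counts include Gpc4 and Gpc6, also in the comparisons where no test of them is given above. There they are high only in the groups that brought them into the fit, so their calls are no support. Where they were called there, the counts are above the ones given earlier. With the library number as a block they were 2 for macrophages in co-culture at 24 h against 0 h (1), 2 for macrophages in co-culture against alone at 0 h (1) and 2 for tumour cells in co-culture at 24 h (0), and the block also called Sdc2 in tumour cells alone at 24 h and, where numbers do not pair libraries, Sdc4 in macrophages in co-culture against alone at 24 h (adjusted p = 0.00523). It changed no other call of a member. The counts with these calls were 4 for tumour cells alone at 24 h (3) and 5 for macrophages in co-culture against alone at 24 h (4). With libraries 002 and 003 only they were 1 for macrophages alone at 24 h (0), 3 in co-culture at 24 h (1), and 2 in co-culture against alone at 0 h and 2 at 6 h (1 each), and in co-culture against alone at 24 h Sdc3 was lost (0.187) and Sdc4 gained (0.0185). In tumour cells with those libraries they were 1 at 6 h in each culture (0), 3 in co-culture at 24 h (0), 4 alone at 24 h (3), 2, 2 and 5 in co-culture against alone at 0 h, 6 h and 24 h (0, 0 and 1), and 1 for the difference between cultures (0). Sdc2 in tumour cells in co-culture against alone at 0 h turned to -0.39 with them (0.05 over all libraries), and the cause was not tested. DESeq2 gave 2 for macrophages in co-culture against alone at 6 h and 6 at 24 h, 1 for tumour cells in co-culture at 24 h and 2 for tumour cells in co-culture against alone at 24 h. The compared groups only gave 3 for macrophages in co-culture at 24 h, 0 and 3 in co-culture against alone at 6 h and 24 h, and 0 for tumour cells in co-culture against alone at 24 h. No filter on low counts gave 0 for macrophages in co-culture at 24 h and 5 in co-culture against alone at 24 h. Without the members over 20 times higher in tumour cells, co-culture against alone in macrophages gave 0 at 0 h, 0 at 6 h and 2 at 24 h. Causes were not tested.

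Leaving out 1 library gave 0 to 1 members for macrophages alone at 24 h, in co-culture at 24 h and in co-culture against alone at 6 h, 3 to 4 in co-culture against alone at 24 h, 2 to 3 for tumour cells alone at 24 h, 0 to 2 for tumour cells in co-culture at 24 h and in co-culture against alone at 24 h, and 4 to 5 for macrophages against tumour cells. Gpc4 and Gpc6 are included in these counts too, with the same limit. With 20 marker genes the tumour cell share in macrophages was 4.47% in co-culture at 24 h (4.14%) and 0% alone at 6 h (0.000714%), and the mean macrophage share in tumour cells at 24 h was 0.490% in co-culture (1.19%) and 0.521% alone (1.36%).

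Counts over all genes moved more. In macrophages alone, 283 genes passed at 6 h (668 with the block, 766 in libraries 002 and 003, 602 by DESeq2, 17 with the compared groups only) and 1998 at 24 h (1061 with the compared groups only). In macrophages in co-culture, 28 passed at 6 h (block 236, libraries 002 and 003 112, DESeq2 277, compared groups 56) and 1502 at 24 h (block 2598). In co-culture against alone at 6 h 1308 passed (block 2053, compared groups 741), and 2 for the difference between macrophage cultures (block 25, DESeq2 61, compared groups 0). In tumour cells alone, 1 passed at 6 h (block 35, libraries 002 and 003 832, DESeq2 28, compared groups 0) and 1424 at 24 h (block 3793, libraries 002 and 003 4828, no filter 842). In tumour cells in co-culture, 2 passed at 6 h (block 28, libraries 002 and 003 401, DESeq2 25, no filter 1, compared groups 0) and 107 at 24 h (block 1263, libraries 002 and 003 3038, DESeq2 413, compared groups 0). In tumour cells in co-culture against alone, 0, 0 and 11 passed at 0 h, 6 h and 24 h (block 162, 5 and 833, libraries 002 and 003 2121, 1232 and 3248), with 431 by DESeq2 and 0 with the compared groups at 24 h. For the difference between tumour cell cultures 0 passed (block 28, libraries 002 and 003 598, DESeq2 1). Single counts limit Gpc4 and Gpc6 in macrophages.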
